A study of Homo sapiens with 6 samples.

Results

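The genes described here are 10 carriers, chaperones and binders of copper and platinum, out of 57820 gene rows in a table of RNA-seq read counts from the bladder cancer line J82, a human line in long use. They were chosen by name, for their part in copper and platinum uptake, export and thiol binding, and no threshold on a measured value defines the set. They are SLC31A1, SLC31A2, SLC22A3, SLC47A1, ATP7A, ATP7B, ATOX1, MT1E, MT1X and MT2A. The table held 3 libraries labelled control and 3 labelled FOXC1 KO, in which the gene of the forkhead transcription factor FOXC1 had been targeted with a lentiviral CRISPR/Cas9 vector. The methods name the controls vector control cells and state that puromycin selection came before any experiment and that knockout clones were checked by western blot. Both groups were grown in DMEM with serum, and the labels name no drug for these libraries. All values are therefore taken as levels without cisplatin. Whether puromycin was present at harvest is not stated. Neither the labels nor the methods say whether the 3 libraries of a group came from separate cultures or from 1 clone, and p-values therefore measure the spread between these libraries, which may be technical.

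Cisplatin is a platinum drug whose handling in the cell overlaps with that of copper. Copper enters through the high-affinity transporter CTR1 (SLC31A1), is passed on by the chaperone ATOX1, and is pumped into the secretory pathway or out of the cell by the ATPases ATP7A and ATP7B. Organic cation carriers such as OCT3 (SLC22A3) and MATE1 (SLC47A1) move platinum drugs across membranes in kidney and other tissues. Metallothioneins are small proteins, rich in cysteine, whose thiols bind zinc, copper, cadmium and platinum. Their genes are switched on by the zinc-sensing factor MTF1.

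To learn which steps of this route differed with FOXC1 knockout, the level of each gene was compared between the groups. SLC31A1, SLC22A3 and SLC47A1 fell and ATOX1 rose in the libraries labelled FOXC1 KO. The ATPases ATP7A and ATP7B, the second copper transporter gene SLC31A2 and the metallothioneins MT1X and MT2A did not pass the test, and MT1E had 0 counts in all 6 libraries. A gene was called when its Benjamini-Hochberg adjusted p in edgeR's quasi-likelihood test over 15647 tested genes was under 0.05 and its fold change was over 1.3. Of the 9 members that passed the filter on low counts, 3 were called lower and 1 higher, and in these 4 the groups did not overlap. Over all tested genes 8.39% were called lower and 7.57% higher, and 41.3% had groups that did not overlap. The median log2 fold change of the 9 was 0.082, and that of all tested genes was -0.00084.

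**Figure D1:**
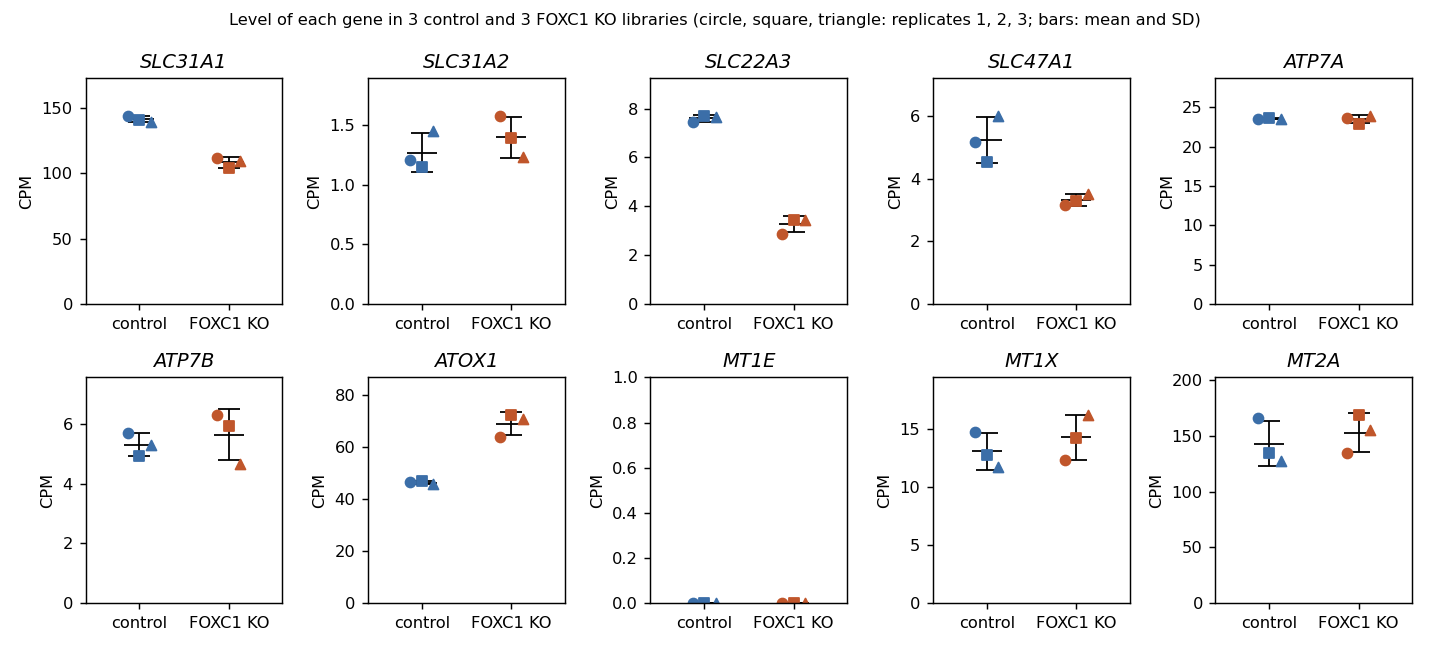
Level of each of the 10 genes in CPM (read counts scaled to library size with TMM factors, linear axes from 0), with 1 point per library, and the mean and SD of each group of 3. The groups lie apart for SLC31A1, SLC22A3, SLC47A1 and ATOX1, overlap for ATP7A, ATP7B, SLC31A2, MT1X and MT2A, and MT1E is at 0 throughout.

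The libraries were first checked as a whole. They held 18408134 to 25350908 counts, the smallest being FOXC1 KO replicate 1. FOXC1 had 18.4, 16.9 and 19.3 CPM in the control libraries and 24.1, 22.2 and 21.1 CPM in those labelled FOXC1 KO. Its transcript was thus not lower there (log2 fold change 0.30, SE 0.091, adjusted p 0.0127 in edgeR, under the 1.3-fold threshold), so it does not check the labels, and directions below are between the libraries as labelled. Among markers of epithelial origin the keratin genes KRT7, KRT8, KRT18 and KRT19 were abundant, and the summed level of 8 epithelial markers was 3020 to 3841 CPM in control and 2368.5 to 2648 CPM in KO libraries. KRT5, KRT20 and the E-cadherin gene CDH1 had no more than 3 counts in any library. The sum of 8 urothelial markers was 163 to 165 CPM and 118 to 122 CPM, mostly from PPARG and GATA3, with UPK3A at 0 and UPK1A and UPK1B at no more than 3 counts in any library. These 2 sums were thus lower in all KO libraries, as were SLC31A1, SLC22A3 and SLC47A1, and their part in the results was not tested. Of 5 tested epithelial markers 4 were called lower (KRT8, KRT18, KRT19 and EPCAM), beside 8.39% of all tested genes. KRT7 was not called (log2 fold change -0.065). The 3 tested urothelial markers, GATA3, PPARG and FOXA1, were all called lower. TP63 went the other way, with 1 count in each control and 4, 9 and 5 counts in KO libraries, too few to be tested. The sum of 4 mesenchymal markers was 1686 to 1829 CPM in control and 1722 to 1984 CPM in KO libraries, and these ranges overlapped. ZEB1 was called higher (log2 fold change 0.57, adjusted p 3.64e-06 in edgeR) and VIM was at 0.30, under the fold threshold. FN1 (0.0084) and CDH2 (-0.11) were not called. The part of these markers was not tested either. Blood markers (5 genes) summed to at most 0.435 CPM in any library, with CD3E at 0. Of the endothelial markers, CDH5 had 0, 0 and 1 counts in control and 18, 18 and 26 counts in KO libraries, while KDR had 8 to 18 and 7 to 14 counts and VWF 3 to 6 and 4 to 7 counts. Bulk libraries cannot tell fewer cells expressing a gene from less RNA per cell. Mitochondrially encoded genes took 2.07% to 2.29% of counts in control and 2.07% to 2.70% in KO libraries.

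Copper uptake was examined first. SLC31A1 (ENSG00000136868.9, GRCh37 chromosome 9, 115983824 to 116026772, plus strand) encodes CTR1, which imports copper and is the best known entry route proposed for cisplatin. The start of CTR1 lies outside the cell and is rich in methionine, which binds copper and platinum by its sulphur. The first 40 codons are shown for this reason, read from the GENCODE transcript, with the 6 methionine codons in capitals:

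SLC31A1: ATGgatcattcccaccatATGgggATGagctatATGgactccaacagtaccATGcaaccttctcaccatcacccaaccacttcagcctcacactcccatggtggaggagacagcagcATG

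SLC31A1 had 144, 141 and 139 CPM in the control libraries and 112, 104 and 109 CPM in the KO libraries. All 3 KO libraries thus lay below all 3 controls, with a gap far wider than the spread inside a group. Group means were 141 ± 2.41 and 108 ± 4.24 CPM for control and KO (SD, n = 3 each), from 2060 to 3534 counts per library. The log2 fold change was -0.38 (SE 0.069, 95% interval -0.52 to -0.24, adjusted p 8.42e-05 in edgeR), a level 1.304-fold lower, just past the 1.3-fold threshold. Without FOXC1 KO replicate 2 it was -0.35, short of that threshold, with an adjusted p of 0.00119 in edgeR. CDC26, a gene of the anaphase-promoting complex, is annotated over the end of SLC31A1 on the other strand and is named here for its position. CDC26 was called lower as well (log2 fold change -0.52, adjusted p 0.000186 in edgeR), and since the strand setting of the counting is not stated, reads from the overlap cannot be assigned with certainty to either gene.

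SLC31A2 (ENSG00000136867.6, chromosome 9, 115913256 to 115926420, plus strand) lies 57.4 kb before SLC31A1 and encodes CTR2, a related protein found on inner membranes. SLC31A2 had 1.203, 1.15 and 1.45 CPM in control and 1.58, 1.39 and 1.23 CPM in KO libraries, from 27 to 37 counts per library. The groups overlapped. Its log2 fold change of 0.12 (SE 0.22) had an adjusted p of 0.722 in edgeR. The 95% interval of -0.33 to 0.58 holds changes beyond 1.3-fold in the upward direction only, so a rise of that size was not excluded at this depth.

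The organic cation carriers fell further on the log2 scale. SLC22A3 (ENSG00000146477.4, chromosome 6, 160769410 to 160873609, plus strand) encodes OCT3, a carrier of organic cations and monoamines that also accepts platinum drugs. SLC22A3 had 7.44, 7.70 and 7.66 CPM in control and 2.88, 3.45 and 3.44 CPM in KO libraries. Every KO library was at less than the lowest control library, and the groups were far apart. The means were 7.60 ± 0.138 and 3.26 ± 0.326 CPM (SD, n = 3 each), a log2 fold change of -1.21 (SE 0.13, 95% interval -1.48 to -0.94, adjusted p 2.43e-08 in edgeR) or a level 2.32-fold lower. It was the member with the smallest p in edgeR (in DESeq2 that was ATOX1), and its counts were modest, from 53 to 195 per library. SLC22A2, which encodes the related carrier OCT2, had 3 to 10 counts per library, too few to be tested.

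SLC47A1 (ENSG00000142494.9, chromosome 17, 19398698 to 19482347, plus strand) encodes MATE1, which exports organic cations in exchange for protons. SLC47A1 had 5.17, 4.54 and 6.01 CPM in control and 3.15, 3.29 and 3.53 CPM in KO libraries. The 3 KO libraries lay close together below the controls, which were more scattered. The means were 5.24 ± 0.737 and 3.32 ± 0.189 CPM (SD, n = 3 each), with a log2 fold change of -0.66 (SE 0.15, 95% interval -0.95 to -0.36, adjusted p 0.000915 in edgeR), a level 1.57-fold lower. SLC47A2, which encodes the related MATE2 carrier, had 1 to 4 counts per library.

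**Figure D2:**
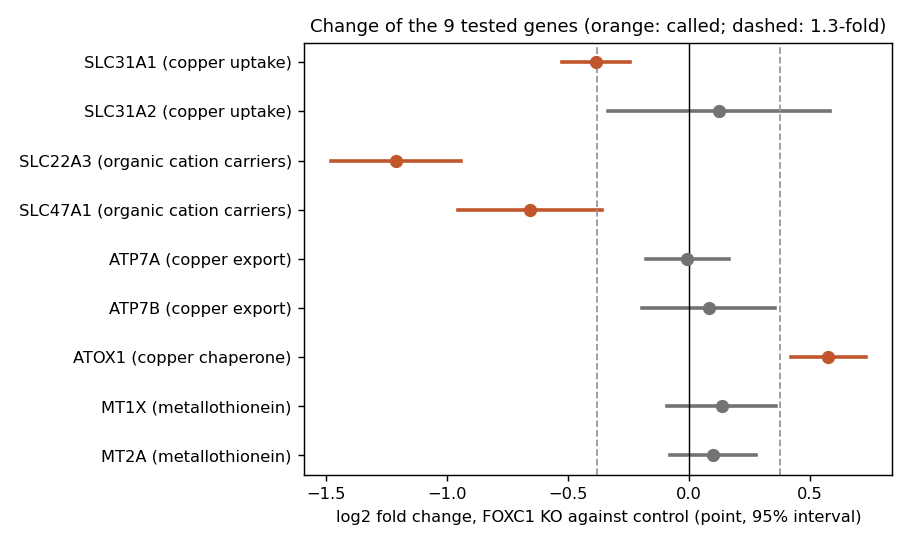
Log2 fold change of the 9 tested genes, FOXC1 KO against control (x axis), with 95% intervals from edgeR, ordered by role; orange marks called genes and dashed lines the 1.3-fold threshold. SLC22A3 (-1.21) and SLC47A1 (-0.66) lie left of zero, SLC31A1 (-0.38) lies at the threshold, ATOX1 (0.58) lies right of zero, and the intervals of the other 5 genes include zero.

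The chaperone moved the other way. ATOX1 (ENSG00000177556.7, chromosome 5, 151121877 to 151152093, minus strand) encodes the protein that carries copper from CTR1 to the ATPases. Its 68 residues hold 1 metal-binding motif of methionine, any residue, cysteine, any 2 residues and cysteine, at residues 10 to 15. Matches to the same motif number 6 in ATP7A and 6 in ATP7B. The coding sequence of ATOX1 is shown, without its stop codon, with this motif in capitals:

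ATOX1: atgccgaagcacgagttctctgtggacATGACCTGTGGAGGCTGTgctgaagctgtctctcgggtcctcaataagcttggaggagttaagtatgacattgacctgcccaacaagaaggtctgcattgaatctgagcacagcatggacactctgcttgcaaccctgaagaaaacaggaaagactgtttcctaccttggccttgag

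ATOX1 had 46.6, 46.9 and 45.8 CPM in control and 63.95, 72.5 and 71.1 CPM in KO libraries. The controls were within about 1 CPM of each other and all KO libraries lay well above them. The means were 46.4 ± 0.544 and 69.2 ± 4.58 CPM (SD, n = 3 each), from 1045 to 1828 counts per library. The log2 fold change was 0.58 (SE 0.076, 95% interval 0.42 to 0.73, adjusted p 7.98e-07 in edgeR), a level 1.49-fold higher. G3BP1, a stress granule gene on the plus strand, overlaps the start of the annotated ATOX1 gene and was called higher too (log2 fold change 0.49, adjusted p 6.23e-06 in edgeR). ATOX1-AS1, an antisense RNA over ATOX1, had 2 to 10 counts per library. The strand limit given for SLC31A1 holds here too.

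Neither exporting ATPase passed the test. ATP7A (ENSG00000165240.13, chromosome X, 77166187 to 77305892, plus strand) encodes the ATPase mutated in Menkes disease. ATP7A had 23.5, 23.6 and 23.5 CPM in control and 23.6, 22.9 and 23.9 CPM in KO libraries. The 6 libraries were thus nearly equal. PGK1, a glycolysis gene with a mean of 1944 CPM in control, is annotated over ATP7A on the same strand (log2 fold change -0.086, adjusted p 0.403 in edgeR). Strand could not separate reads from any part that both annotations share, so the ATP7A values hold for reads as assigned. For ATP7A the log2 fold change was -0.0053 (SE 0.084), with an adjusted p of 0.971 in edgeR. Its 95% interval of -0.18 to 0.17 stays inside the 1.3-fold threshold in both directions. ATP7B (ENSG00000123191.9, chromosome 13, 52504572 to 52586261, minus strand) encodes the ATPase mutated in Wilson disease and has been studied as an exporter of cisplatin. ATP7B had 5.705, 4.91 and 5.31 CPM in control and 6.30, 5.95 and 4.67 CPM in KO libraries. The groups overlapped, and the KO libraries held both the highest and the lowest value. The log2 fold change was 0.082 (SE 0.13, 95% interval -0.19 to 0.36, adjusted p 0.691 in edgeR). Within libraries, the log2 ratio of ATP7B to ATP7A counts was -2.15 ± 0.109 in control and -2.07 ± 0.248 in KO (SD, n = 3 each, exact permutation p 0.6, two-sided, where 3 libraries against 3 allow 0.1 at the lowest).

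The metallothionein genes lie in a cluster of 119 kb on chromosome 16, from MT4 to MT1X, and their coding sequences are alike. Those of the 3 members are shown without stop codons and with cysteine codons in capitals, because the cysteine thiols are what binds metal and because the likeness bears on how reads are assigned:

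MT2A: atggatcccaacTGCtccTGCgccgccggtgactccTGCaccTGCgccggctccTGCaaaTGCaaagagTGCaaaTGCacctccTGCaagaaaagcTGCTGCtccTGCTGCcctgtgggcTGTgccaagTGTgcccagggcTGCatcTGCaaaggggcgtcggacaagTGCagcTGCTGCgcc

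MT1X: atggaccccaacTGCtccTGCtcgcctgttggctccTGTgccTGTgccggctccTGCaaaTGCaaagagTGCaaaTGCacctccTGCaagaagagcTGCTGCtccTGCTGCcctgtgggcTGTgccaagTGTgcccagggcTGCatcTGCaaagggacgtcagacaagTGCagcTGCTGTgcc

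MT1E: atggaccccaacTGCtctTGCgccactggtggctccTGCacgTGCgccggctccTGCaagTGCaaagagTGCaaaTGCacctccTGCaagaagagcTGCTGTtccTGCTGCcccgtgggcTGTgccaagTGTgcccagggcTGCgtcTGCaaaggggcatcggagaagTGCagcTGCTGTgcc

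Each of the 3 codes for 61 residues, of which 20 (32.8%) are cysteine. The coding sequence of MT1X is 92.3% identical to that of MT2A and 90.7% to that of MT1E, and MT1E is 92.3% identical to MT2A. The transcripts were searched for stretches of 75 bases, the read length, that match another place in GRCh37 or a transcript of another gene exactly. The search kept only ungapped alignments without a mismatch, and it found none for MT1E, MT1X or MT2A. It also found none for the other 2 metallothionein genes with enough counts to test, MT1F and MT1M. Of the other members, SLC31A1 had such matches, for 36 of its 4688 windows (0.768%). An exact stretch inside a longer alignment that holds mismatches could be missed. For genes this alike the search therefore cannot show that reads were assigned to the right gene.

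MT2A (ENSG00000125148.6, chromosome 16, 56642496 to 56643409, plus strand), commonly the most abundant metallothionein gene in human cells, had 166, 135 and 128 CPM in control and 134, 169 and 155 CPM in KO libraries. The groups overlapped across most of their range. The means were 143 ± 20.3 and 153 ± 17.3 CPM (SD, n = 3 each), and the log2 fold change was 0.099 (SE 0.087, 95% interval -0.079 to 0.28, adjusted p 0.425 in edgeR). Control replicate 1 was the highest control, and without it the log2 fold change was 0.21 with an adjusted p of 0.0313 in edgeR, under the 1.3-fold threshold. It was 0.026 without control replicate 3 and 0.023 without FOXC1 KO replicate 2, both with an adjusted p of 0.889 in edgeR.

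MT1X (ENSG00000187193.8, chromosome 16, 56716382 to 56718108, plus strand) had 14.8, 12.7 and 11.7 CPM in control and 12.3, 14.2 and 16.2 CPM in KO libraries. A gene without a symbol, ENSG00000259827, overlaps MT1X on the same strand. The groups overlapped too, with a log2 fold change of 0.14 (SE 0.11, 95% interval -0.089 to 0.36, adjusted p 0.381 in edgeR), which ran from 0.028 without FOXC1 KO replicate 3 to 0.22 without control replicate 1. MT1X made up 8.39 ± 0.235% of the MT1X and MT2A reads in control and 8.54 ± 0.838% in KO libraries (SD, n = 3 each, exact permutation p 0.8, two-sided).

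MT1E (ENSG00000169715.10, chromosome 16, 56659387 to 56661024, plus strand) had 0 counts in every library. A count of 0 allows a level of up to 3 counts, or 0.118 to 0.163 CPM depending on the library, for counting error only. MT1E overlaps no other gene in the annotation used here, but the counts were made with GENCODE version 19, in which overlap was not checked, so whether the 0 reflects the assignment of reads was not tested. Its share of the reads of the 3 members was 0 in all libraries. The summed level of MT1E, MT1X and MT2A was 7.27 ± 0.196 in control and 7.38 ± 0.164 in KO on the log2 CPM scale (SD, n = 3 each, exact permutation p 0.6, two-sided). The difference of 0.10 ran from 0.027 without control replicate 3 to 0.21 without control replicate 1.

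The rest of the family was compared to see whether MT2A and MT1X stood for it. The table held 16 metallothionein genes and pseudogenes, of which 9 had 0 counts in all libraries and only MT1X, MT2A, MT1F and MT1M could be tested. Unlike the members, MT1F and MT1M were called lower. MT1M had 4.59, 4.50 and 4.21 CPM in control and 1.79, 2.30 and 1.83 CPM in KO libraries (log2 fold change -1.15, SE 0.16, adjusted p 2.16e-06 in edgeR). MT1F had 9.98, 8.89 and 7.98 CPM in control and 4.51, 6.66 and 5.23 CPM in KO libraries (log2 fold change -0.69, SE 0.13, adjusted p 0.000188 in edgeR). For both genes all KO libraries lay below all controls. To compare genes inside a library, which needs no scaling, MT1M and MT1F were taken as a share of all tested metallothionein reads. This share was 7.94 ± 0.436% in control and 4.25 ± 0.375% in KO libraries (SD, n = 3 each) and was lower in all KO libraries. Both genes were chosen for the share after they had been called lower in these libraries. Its separation was thus largely set beforehand, and the share is a description, not a further test. Control replicate 1 was the highest control for MT2A, MT1X, MT1F and MT1M, and FOXC1 KO replicate 1, the library with the fewest counts, was the lowest KO library for all 4.

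**Figure D3:**
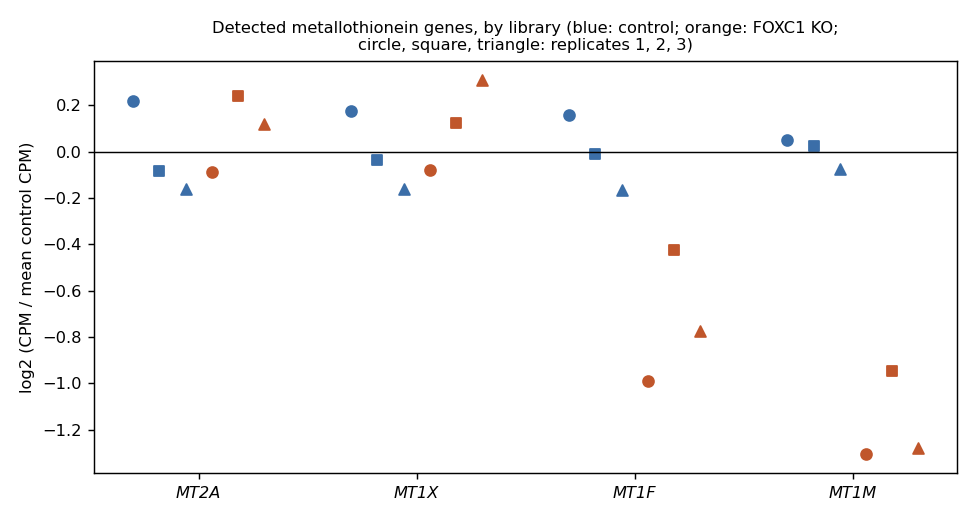
Level of the 4 tested metallothionein genes in each library, as log2 of CPM over the mean control CPM (y axis), with blue points for control and orange points for FOXC1 KO and 1 marker shape per replicate number. Orange points lie below all blue ones for MT1F and MT1M and among them for MT2A and MT1X.

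Metallothionein promoters carry metal response elements, short sequences bound by MTF1. The 250 bases before the start sites of MT2A and MT1X are printed because these are the metallothionein members with counts, from RefSeq promoters of GRCh38.p14, on the plus strand, at chr16:56608334-56608583 and chr16:56682220-56682469. Capitals mark the core letters TGCACNC or TGCGCNC on either strand, where neighbouring matches may overlap:

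MT2A promoter: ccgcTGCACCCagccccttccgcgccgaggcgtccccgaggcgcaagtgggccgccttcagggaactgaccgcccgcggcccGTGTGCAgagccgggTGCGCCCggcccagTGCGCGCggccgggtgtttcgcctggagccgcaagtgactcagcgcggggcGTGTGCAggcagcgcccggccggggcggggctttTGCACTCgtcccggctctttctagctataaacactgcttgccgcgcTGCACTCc

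MT1X promoter: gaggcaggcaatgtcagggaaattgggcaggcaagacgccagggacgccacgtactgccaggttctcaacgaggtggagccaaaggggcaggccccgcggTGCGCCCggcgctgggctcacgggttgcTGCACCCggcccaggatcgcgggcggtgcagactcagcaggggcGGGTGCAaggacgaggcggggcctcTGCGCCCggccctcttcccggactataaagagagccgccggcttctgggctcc

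These letters occurred 7 times in the MT2A window and 4 times in the MT1X window. Of 35116 promoters of the same length 24.8% held at least 1 match and 0.370% held 4 or more. MTF1 itself had a log2 fold change of 0.24 (adjusted p 0.0211 in edgeR) and SLC30A1, the zinc exporter gene that MTF1 also drives, of -0.022 (adjusted p 0.858), both under the 1.3-fold threshold. The forkhead core TGTTTAC, on either strand, was in 2.98% of the promoters. It was in none of the 8 promoter windows of the 6 members found in the RefSeq table (SLC31A1, ATP7A, ATP7B with 3 start sites, ATOX1, MT1X and MT2A), which says only that these letters are absent from those windows.

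Levels were also compared between genes, per kilobase of transcript. In control libraries MT2A was highest at 356 ± 50.5 CPM per kb, followed by ATOX1 at 98.6 ± 1.15, MT1X at 32.3 ± 3.87 and SLC31A1 at 29.6 ± 0.506 (SD, n = 3 each). MT1X and SLC31A1 did not differ beyond their spread. A lower tier held ATP7A at 2.77 ± 0.0049, SLC22A3 at 2.35 ± 0.0427 and SLC47A1 at 1.598 ± 0.225 CPM per kb, and below it lay ATP7B at 0.804 ± 0.0600 and SLC31A2 at 0.736 ± 0.0950, which did not differ beyond their spread. Thus the level per kb of MT2A was 12.01 times that of SLC31A1, SLC31A1 was 40.3 times SLC31A2, and ATP7A was 3.45 times ATP7B. In KO libraries the order was the same at the top, with ATOX1 at 147 ± 9.72 and SLC31A1 at 22.7 ± 0.891 CPM per kb, while SLC22A3 (1.01 ± 0.101) and SLC47A1 (1.01 ± 0.0577) could no longer be told apart.

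Other genes of the route were counted from lists of copper, zinc, platinum and thiol handling genes. Of 12 tested copper chaperone and reductase genes 3 were called higher and 0 lower, beside 7.57% and 8.39% of all tested genes, with a list median of -0.032 on the log2 scale. The 3 were the metalloreductase genes STEAP2 and STEAP3, whose products reduce copper and iron, and CP, which encodes the copper-bearing ferroxidase ceruloplasmin. STEAP3 had 60.8, 51.3 and 53.4 CPM in control and 117.5, 117.5 and 110.4 CPM in KO libraries, a level 2.09-fold higher (log2 fold change 1.06, SE 0.077, adjusted p 6.48e-12 in edgeR). STEAP2 was 2.12-fold higher (log2 fold change 1.09, adjusted p 2.58e-06 in edgeR). CP was 2.40-fold higher (log2 fold change 1.26, adjusted p 1.78e-08 in edgeR). The members of this list that pass copper on inside the cell, CCS (-0.14), COX17 (-0.14), COX11 (-0.056) and SCO1 (0.21), and the copper enzyme gene SOD1 (-0.18), did not pass.

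Of 18 tested genes of zinc carriers and MTF1, 0 were called, although 9 were higher and 2 lower at an adjusted p under 0.05 in edgeR with no fold threshold. At that p alone 15.2% of all tested genes were higher and 14.3% lower. SLC39A13, the zinc carrier closest to the threshold, had a log2 fold change of 0.38, or 1.297-fold. Of 8 other tested platinum carriers, which include volume-regulated channel genes, 0 were called. At that p alone 2 were higher, TMEM205 (0.32) and the channel gene LRRC8C (0.32), and 0 lower. The channel genes LRRC8A (0.040) and LRRC8D (0.0063) did not pass. Among 12 genes of glutathione and thioredoxin 1 was called, CHAC1, which breaks down glutathione, at 1.39-fold higher (log2 fold change 0.47, adjusted p 0.00287 in edgeR). Without the fold threshold this list had 2 higher and 4 lower genes, the higher ones being CHAC1 and GCLM (0.36), a subunit gene of the enzyme that starts glutathione synthesis, and the lower ones GCLC (-0.22), GSR (-0.34), TXN (-0.28) and TXNRD1 (-0.31).

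**Figure D4:**
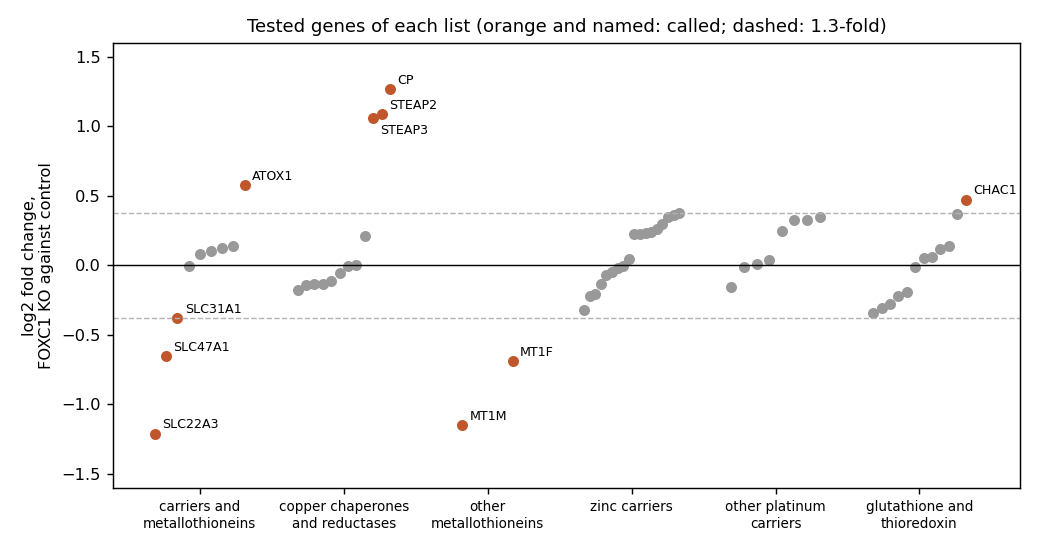
Log2 fold change, FOXC1 KO against control (y axis), of every tested gene in the 10 carriers and metallothioneins and in 5 related lists (x axis), with called genes in orange and named and dashed lines at 1.3-fold. STEAP2, STEAP3 and CP stand above 1, MT1M and SLC22A3 stand below -1, and no zinc carrier or other platinum carrier is past the dashed lines.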

How the data were processed

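RNA-seq libraries of 3 control and 3 FOXC1 KO samples of J82 cells were grouped by their titles. Per the labels and methods, the authors aligned 75-base read pairs to hg19 with STAR and assigned them to GENCODE version 19 genes with featureCounts of Subread, and the deposited values are raw read counts per gene, with replicates not pooled. Strand and multi-mapping settings and tool versions are not given in the sources used here. The table held 57820 genes, of which 55538 (96.05%) matched the GRCh37 annotation (GENCODE version 44 mapped to GRCh37, the same assembly as hg19) that gave symbols and positions. Library totals ranged from 18408134 to 25350908 counts. Replicates were distinct libraries (chi-square per gene 2.94 to 10.1).

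Counts were filtered with filterByExpr, scaled with TMM and tested in edgeR 4.0.16 (R 4.3.3) by its quasi-likelihood F test with robust dispersions and group as the only term. Standard errors came from the F statistic, and the procedure was tested on simulated data. DESeq2, the tool named in the study's methods, was run here as an alternative in version 1.42.0, as were other scalings, filters and thresholds, thinning, a replicate block and leaving out each library. CPM values used TMM-scaled totals, and CPM per kb used the canonical transcript length (for MT1E, the transcript coding for 61 residues). Read-length windows were searched with BLAST 2.17.0. No column belonged to other samples (0). The genes and lists were chosen with earlier results of these data known. Named genes are all members, called genes of each list (at most 4 by p), FOXC1, genes alike in level, and genes near the members, the last of these chosen after values were seen, as were MT1F and MT1M as a share and the list members given with values but not called. Intervals and floors cover counting error only where they rest on single counts. Some genes that these rules would name are not reported here.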

Additional observations from a re-analysis of the deposited data

How the results depend on the processing

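With DESeq2 the log2 fold changes were -1.21 for SLC22A3, -0.65 for SLC47A1, -0.38 for SLC31A1 and 0.58 for ATOX1, with 3 members called lower and 1 higher. SLC31A1 lies at the 1.3-fold threshold and varied between -0.41 and -0.35 when single libraries were left out (-0.35 without FOXC1 KO replicate 2), so members called lower ranged from 2 to 3 there. ATP7A changed sign around zero, at 0.0035 after thinning and from -0.025 to 0.015 without single libraries. The KO minus control difference in the share of MT1X was 0.152 percentage points with all libraries. It ran from -0.297 to 0.534 percentage points without single libraries. With a fold change over 2, SLC31A1 (-0.38), SLC47A1 (-0.66) and ATOX1 (0.58) were no longer called, which left 1 member lower and 0 higher, 1 list gene lower, and 321 lower and 316 higher over all genes. With no fold threshold 2233 genes were lower and 2372 higher, and of the list genes 8 and 16, against 2 and 4 with it. These shifts follow from how the thresholds are built; for ATP7A the cause was not tested. CHAC1 fell short of the threshold after thinning (0.37). SLC31A2 was not tested at a mean of at least 50 counts, since it has fewer. Libraries with the same replicate number did not deviate together (correlations of deviations -0.027, -0.072 and 0.050), and with the replicate block 3 members were lower and 1 higher, 1351 genes lower and 1200 higher. No scaling moved the median log2 fold change of all genes past 0.1. Depth limits SLC31A2, and MT1E had no counts.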

Other observations

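Genes beside the members were looked at after their values were seen. Of the 36 protein-coding tested genes that were the nearest 3 on each side of SLC31A1, SLC22A3, SLC47A1, ATOX1, ATP7A and ATP7B, 3 (8.33%) were called lower and 4 (11.1%) higher, against 8.39% and 7.57% of all tested genes. The 36 include the member SLC31A2, and CDC26, G3BP1 and PGK1, which overlap SLC31A1, ATOX1 and ATP7A. ATOX1 stood between SPARC, which encodes a matrix glycoprotein (log2 fold change 0.53), and G3BP1 (0.49), both called higher in edgeR. After SLC31A1, CDC26 (-0.52) was called lower and the splicing factor gene PRPF4 had a log2 fold change of -0.30. After SLC22A3 came MAP3K4 (-0.039), not called, and then AGPAT4 (0.54), called higher. Around SLC47A1 the nearest genes were MAPK7 (-0.10) and ALDH3A2 (-0.30), neither of them called. The gene with the largest change among the 36 was RTL3 (2.57), the last of the nearest 3 after ATP7A, behind PGK1 and TAF9B. Near the metallothionein cluster, NUDT21 (-0.0080), OGFOD1 (0.070), NUP93 (-0.13), HERPUD1 (-0.25) and the unnamed ENSG00000261270 (-0.10) were not called.

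Over the 6 libraries, the level most like that of SLC22A3 was that of CYB5A, a cytochrome gene (Pearson r 0.9993), followed by RORB (0.9988), SMIM19 (0.9987), GIMAP2 (0.9973) and MRPS33 (0.9968), all of which were lower in KO libraries. The summed metallothionein level was followed most closely by RFNG (0.993), THAP7-AS1 (0.988), SLX9 (0.986), VPS16 (0.984) and TP73 (0.983), with log2 fold changes from 0.062 to 0.15. These are correlations of log2 CPM over 6 libraries that share the 2 groups, given as a description.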
